A study of Mus musculus with 4 samples.

Results

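The interferon receptors and the genes that interferons induce were followed here in sorted mouse blood stem and progenitor cells, across 2 arrays labelled Alox15-/- and 2 arrays labelled WT. The members are a fixed list of 40 gene symbols, chosen by name and pathway, though with earlier results of these data known. Of the 40, 38 had a probe set of their own on the array, out of 18194 genes measured in all. For Isg15, a ubiquitin-like protein, the 1 probe set was shared with a second gene symbol, and for Ifi44 no probe set carried that symbol alone, so neither was read. Each gene was represented by the probe set with the highest mean over the 4 arrays.

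Both groups were C57BL/6 mice aged 8 weeks, and the cells were bone marrow cells negative for lineage markers and positive for c-Kit and Sca-1. Besides stem cells, such a gate takes in multipotent progenitors. The Alox15-/- label names a deletion of the arachidonate 15-lipoxygenase gene, and WT mice are the controls. The labels state neither how the deletion was made nor how many animals each array stands for. The p-values therefore reflect only how far these samples spread, and part of that spread may be technical. Alox15 itself went against its label: it read 10.68 and 10.75 in the arrays labelled Alox15-/- and 4.63 and 4.35 in WT arrays, on the log2 scale of the deposited values. The sources at hand do not place that probe set inside or outside the deletion, and every direction below is that of the arrays as labelled. The 3′ minus 5′ difference of the Gapdh control probe sets, a sign of RNA quality, was 2.14 and 2.17 in the arrays labelled Alox15-/- and 2.37 and 2.39 in WT arrays. Of the 10 sorting-gate and stem cell markers, 8 were measured and all 8 lay above the bacterial controls, with Kit at 10.34 and 10.23 in the arrays labelled Alox15-/- and 10.63 and 10.48 in WT arrays. For 4 of these 8 the arrays labelled Alox15-/- were both below both WT arrays, against 17.1% of all genes, and for 1 both were above, against 21.4%. Sca-1, encoded by Ly6a, had no probe set of its own.

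Interferons are secreted antiviral cytokines. Type I interferons bind the receptor made of Ifnar1 and Ifnar2, and interferon gamma binds the receptor made of Ifngr1 and Ifngr2. The type I signal brings Stat2 and Irf9 to the interferon-stimulated response element, whereas interferon gamma acts mainly at gamma-activated sites. In mouse bone marrow, interferons are known to push dormant stem cells into division, and several interferon-induced genes are expressed in stem cells without infection. Sca-1 is itself interferon-inducible, so the gate uses a product of the same pathway.

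The response element is short enough to be seen in the promoters of the members. It was searched as GAAANNGAAA and, for the other strand, as TTTCNNTTTC, in windows of 250 bases before to 50 bases after each gene's start in RefSeq (GRCm38.p6). Of the 40 listed members, 33 had a window, and 16 of these 33 (48.5%) held a match, against 3.99% of 27025 genes in the table, and 8 of the 16 held several matches that can overlap each other. The gamma-activated site, searched as TTCNNNGAA, which reads the same on both strands, was present for 11 of the 33 (33.3%), against 9.55% of genes, and it can overlap the response element in the same window. A match is a description of these letters and not of binding. The windows of 8 members are shown around their matches, because these genes recur in the comparisons below. Matches are in capitals, the sequence runs 5′ to 3′ on the gene's own strand, and coordinates are those of GRCm38.p6.
Stat2, chr10:128270264-128270297, plus strand: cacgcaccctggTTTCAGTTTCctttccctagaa
Ifit1, chr19:34640773-34640825, plus strand: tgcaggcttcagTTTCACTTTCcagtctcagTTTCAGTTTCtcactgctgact
Ifit3, chr19:34583361-34583428, plus strand: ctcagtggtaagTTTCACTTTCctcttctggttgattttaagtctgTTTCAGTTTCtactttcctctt
Oas1a, chr5:120907518-120907557, minus strand: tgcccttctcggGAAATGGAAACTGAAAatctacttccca
Oas3, chr5:120777713-120777746, minus strand: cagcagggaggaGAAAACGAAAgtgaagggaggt
Gbp2, chr3:142620592-142620625, plus strand: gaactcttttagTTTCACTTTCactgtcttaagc
Irgm1, chr11:48871423-48871462, minus strand: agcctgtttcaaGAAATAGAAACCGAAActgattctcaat
Cxcl10, chr5:92349081-92349114, minus strand: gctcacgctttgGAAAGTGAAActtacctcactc

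In Ifit1 and Ifit3, which lie in 1 cluster of related genes, the 2 matches begin with the same letters, TTTCACTTTC and then TTTCAGTTTC, and are kept apart by other bases. In Oas1a and Irgm1 the 2 matches share 4 bases and so form 1 longer repeat close to the gene's start. Cxcl10 and Stat2 hold their only match far from the start, beginning 213 and 222 bases before it.

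All 38 measured members were read above background. The background level was set by 27 control probe sets for Bacillus subtilis genes, which match no mouse transcript. The highest of them read 5.17 and 5.08 on the arrays labelled Alox15-/- and 4.995 and 4.95 on WT arrays, and each member was compared with the highest one on the same array. On this rule 38 of 38 members were above on all 4 arrays, against 71.5% of all genes, and 0 members were at background. The margin was over 2 on the log2 scale for 30 members and over 1 for 35. Levels of different probe sets cannot be set against each other, because probes differ in how well they bind.

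The 3 members nearest the controls were Oasl1, Mx2 and Cxcl10. Oasl1, which in mice restrains Irf7, read 5.51 and 5.99 in the arrays labelled Alox15-/- and 5.42 and 6.01 in WT arrays, and its smallest margin over the controls was 0.34. Mx2, a gene of the dynamin-like GTPase family, read 5.98 and 5.69 in the arrays labelled Alox15-/- and 5.72 and 6.05 in WT arrays. Both genes had overlapping groups and 1 low and 1 high array in each. At the other end of the margins stood Ifitm3, Trim25 and Ifitm1, of which Ifitm3 and Ifitm1 encode small transmembrane proteins that block virus entry. Ifitm3 read 12.53 and 12.52 in the arrays labelled Alox15-/- and 12.53 and 12.56 in WT arrays. Ifitm1 read 12.01 and 11.97 in the arrays labelled Alox15-/- and 11.94 and 12.06 in WT arrays. The Ifitm3 groups did not overlap but were separated by less than the 2 decimals printed, with a difference of -0.02, and for Ifitm1 the WT arrays spanned the others.

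**Figure D1:**
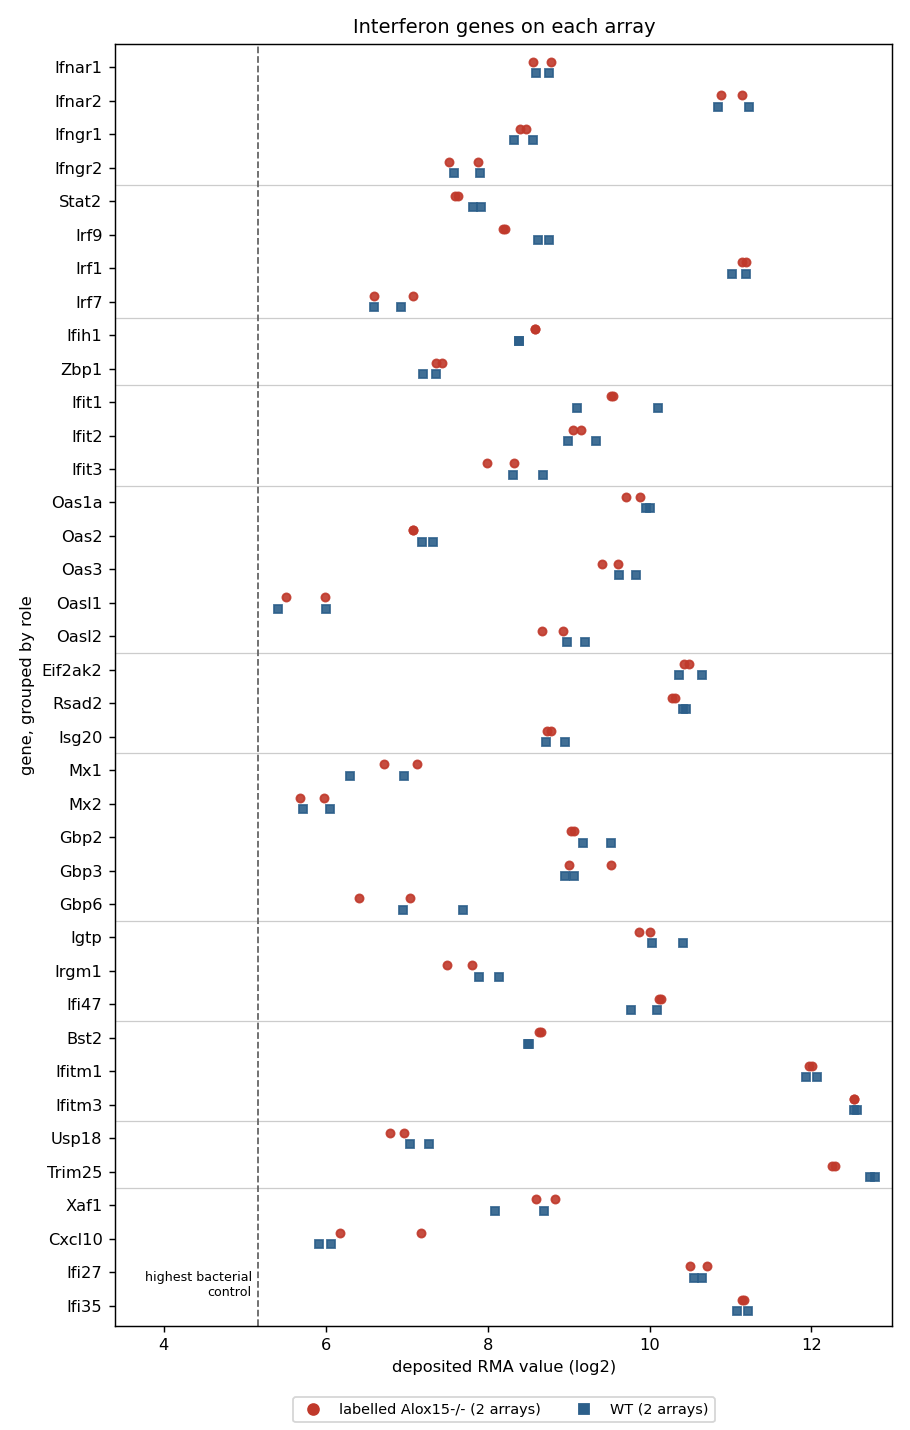
Deposited log2 value of each of the 38 measured members on each array, with the 2 arrays labelled Alox15-/- as circles above the 2 WT arrays as squares, and lines separating genes by role. The dashed line marks 5.17, the highest bacterial control on any array, and every point lies to its right.

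The genes of the interferons themselves were mostly near background. Of 19 listed interferon genes, 10 were measured and 6 lay at or below the highest control on all 4 arrays, Ifnb1 and Ifng among them. Ifng read 3.84 and 3.92 in the arrays labelled Alox15-/- and 3.79 and 3.91 in WT arrays. Ifnz, Ifna1 and Ifna5 were above the controls on all arrays, but these genes have close copies that a probe set may not separate. Ifnz differed by -0.50 between the arrays labelled Alox15-/- and WT arrays, Ifna1 by 0.11 and Ifna5 by 0.01.

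At the level of the group comparison, no member passed the threshold. Differences are given as the arrays labelled Alox15-/- minus WT arrays on the log2 scale, from limma fitted to all 18194 genes, with p-values adjusted by Benjamini-Hochberg and called under 0.05. Of the 38 members 0 were higher and 0 lower, against 0.0055% of all genes called higher and 0.0% called lower. The lowest adjusted p among the members was 0.575, and 2 members (5.26%) had an unadjusted p under 0.05, against 7.77% of all genes. The median difference over the members was -0.05, against 0.02 over all genes. The members' differences ran from -0.61 to 0.68, and 36 of 38 were under 0.5 in size. Their median size was 0.16, close to the 0.14 of all genes above the highest control.

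More members lay on the negative side than genes in general. Of the 38, 25 (65.8%) had a negative difference, against 46.2% of all genes. For 13 members (34.2%) both arrays labelled Alox15-/- were below both WT arrays, against 17.1% of all genes, and for 5 members (13.2%) both were above, against 21.4%. These counts moved with single arrays. Without WT replicate 1 the groups did not overlap for 21 members on the lower side and 9 on the higher side. Without WT replicate 2 it was 18 lower and 14 higher. Without replicate 1 of the arrays labelled Alox15-/- it was 17 lower and 8 higher, and without replicate 2 it was 16 and 8. A group of 1 array overlaps less often by construction. No share of all genes is given for these settings, so the counts cannot be read as particular to the members. The median difference ran from -0.16 without WT replicate 1 to -0.03 without WT replicate 2.

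WT replicate 2 stood above WT replicate 1 for 26 of the 38 members (68.4%), against 48.4% of all genes, and the median gap over the members was 0.11, against -0.01 over all genes. In the arrays labelled Alox15-/-, replicate 2 was above replicate 1 for 18 members (47.4%) and below it for 19. The members' mean level relative to their own mean over 4 arrays was -0.04 and -0.02 in the arrays labelled Alox15-/- and -0.02 and 0.09 in WT arrays, so WT replicate 2 alone lay above the others. The median size of the gap between the 2 arrays of a group was 0.11 in the arrays labelled Alox15-/- and 0.23 in WT arrays.

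**Figure D2:**
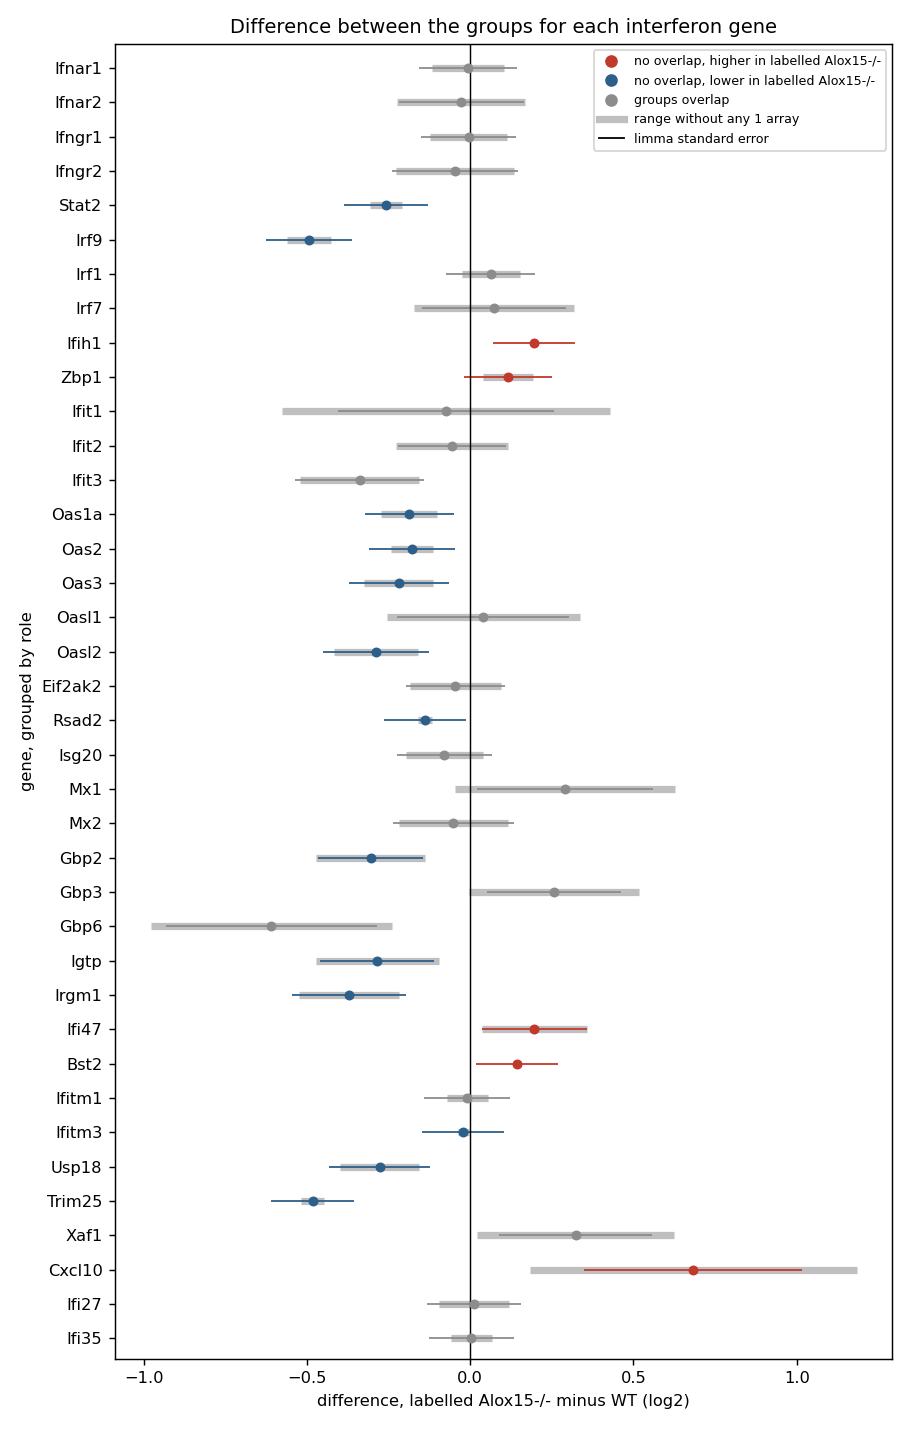
Difference of each member (labelled Alox15-/- minus WT, log2) as a point with its limma standard error, over a grey bar spanning its values when any 1 array is left out. Points are red or blue for the 5 and 13 members whose groups do not overlap, higher or lower in the arrays labelled Alox15-/-, and most grey bars of the other members cross 0.

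Neutrophil markers lay on the positive side, and the marker lists of other blood cells varied. Of 10 neutrophil markers 8 were measured, all 8 had a positive difference, and for 6 (75.0%, against 21.4% of all genes) the groups did not overlap on the higher side, with a median difference of 1.03 and 0 past limma's threshold. Their summed linear level was 2719 and 2075 in the arrays labelled Alox15-/- and 640.3 and 1403 in WT arrays, and Mmp8 was at background on all arrays. Of 10 macrophage and monocyte markers 8 had a positive difference, but only 5 were above the controls on all arrays, and Adgre1 was at background. Without overlap, 2 (20.0%) were higher and 1 (10.0%) lower, against 21.4% and 17.1% of all genes. Their summed level was 1761 and 1203 in the arrays labelled Alox15-/- against 923.7 and 1038 in WT arrays. C1qb, with overlapping groups, read 9.53 and 6.23 in the arrays labelled Alox15-/- and 4.92 and 7.55 in WT arrays. The 8 markers of plasmacytoid dendritic cells, which produce type I interferon, were all above the controls, with 3 higher and 2 lower without overlap. Their differences ran from -0.62 for Ccr9 to 0.39 for Ly6d, with the defining marker Siglech at 0.14. Without overlap, 5 of 8 T and NK cell markers, 3 of 7 B cell markers and 0 of 5 erythroblast markers were higher, against 21.4% of all genes. The T cell marker Cd4 was lower without overlap. Cd3e and Cd3g, which are counted among the higher, were at background, as was Ms4a1. The B cell markers higher without overlap were Vpreb1, Igll1 and Jchain, whereas Cd79a, Cd79b, Pax5 and Ms4a1 had overlapping groups. The part of other cell types in the members' values was not tested, and fewer cells of a type cannot be told apart from less RNA per cell.

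The receptors were read in both groups with overlapping values. Ifnar1, the signalling subunit of the type I receptor, read 8.56 and 8.78 in the arrays labelled Alox15-/- and 8.76 and 8.59 in WT arrays. Its partner Ifnar2, which holds the ligand tightly, read 11.14 and 10.88 in the arrays labelled Alox15-/- and 10.84 and 11.23 in WT arrays. For Ifnar1 the arrays labelled Alox15-/- spanned the WT values, and for Ifnar2 the WT arrays spanned the others. Ifngr1, which binds interferon gamma, read 8.40 and 8.47 in the arrays labelled Alox15-/- and 8.56 and 8.32 in WT arrays. Ifngr2, the accessory subunit, read 7.88 and 7.52 in the arrays labelled Alox15-/- and 7.91 and 7.59 in WT arrays. All 4 differences lay between -0.05 and -0.005, with standard errors of 0.15 to 0.19, and all 4 changed sign when single arrays were left out.

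Other probe sets of the receptors gave a different picture. The second probe set of Ifnar1 read 8.39 and 8.35 in the arrays labelled Alox15-/- and 8.81 and 8.75 in WT arrays, with no overlap and a difference of -0.41 (limma adjusted p = 0.619 over every named probe set). One of the 2 further Ifnar2 probe sets read 8.38 and 8.33 in the arrays labelled Alox15-/- and 9.43 and 8.62 in WT arrays, where WT replicate 1 was far above the rest, and the difference was -0.67. The other read 10.26 and 10.11 in the arrays labelled Alox15-/- and 10.30 and 10.44 in WT arrays, a difference of -0.19. Both further Ifnar2 probe sets were lower without overlap. For Ifngr2 the second probe set lay on the positive side at 0.46, with 7.69 and 7.66 in the arrays labelled Alox15-/- and 7.38 and 7.05 in WT arrays. None of these passed the threshold. With the mean of a gene's probe sets the difference was -0.21 for Ifnar1, -0.30 for Ifnar2 and 0.21 for Ifngr2. The sources at hand do not say which part of each transcript they read.

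Among the transcription factors, Irf9 had the lowest p. Irf9, the DNA-binding partner of Stat2, read 8.19 and 8.21 in the arrays labelled Alox15-/- and 8.76 and 8.62 in WT arrays. The groups did not overlap, the difference was -0.49 ± 0.13 (SE, n = 2 each) and limma's adjusted p was 0.575. Stat2 itself, whose window is shown above, read 7.64 and 7.60 in the arrays labelled Alox15-/- and 7.83 and 7.92 in WT arrays, a difference of -0.26 without overlap, but -0.05 with overlap at its second probe set. Irf1, an early factor induced by interferon gamma, read 11.19 and 11.14 in the arrays labelled Alox15-/- and 11.02 and 11.19 in WT arrays. Irf7, which amplifies type I interferon production, read 7.08 and 6.59 in the arrays labelled Alox15-/- and 6.60 and 6.93 in WT arrays. For Irf1 and Irf7 the groups overlapped, with differences of 0.06 and 0.07.

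Both sensors among the members lay on the positive side at the probe sets used. Of the further genes of nucleic acid sensing given below, more were lower than higher without overlap. Ifih1, which encodes the sensor of long double-stranded RNA MDA5, read 8.58 and 8.58 in the arrays labelled Alox15-/- and 8.39 and 8.38 in WT arrays. Its replicates were nearly equal within each group, and the groups differed by 0.20 ± 0.13 (SE, n = 2 each), with adjusted p = 0.748 by limma. Zbp1, a sensor of Z-form nucleic acids that triggers cell death, read 7.37 and 7.43 in the arrays labelled Alox15-/- and 7.21 and 7.36 in WT arrays, and its second probe set gave -0.04 with overlapping groups.

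The IFIT proteins, which bind foreign RNA, showed a wide spread within WT. Ifit1 read 9.55 and 9.52 in the arrays labelled Alox15-/- and 9.11 and 10.11 in WT arrays. The 2 WT arrays differed by 1.00, the widest gap between WT arrays among the members, and both other arrays lay between them. Ifit3, with a similar pair of matches in its window, read 7.99 and 8.33 in the arrays labelled Alox15-/- and 8.32 and 8.68 in WT arrays. The difference was -0.34 with a slight overlap. Ifit2 differed by -0.06.

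The OAS family was the group with the most members below WT. Several enzymes of this family sense double-stranded RNA and activate RNase L. Of the 5 measured in the member list, 4 had both arrays labelled Alox15-/- below both WT arrays, against 17.1% of all genes. Oas1a read 9.88 and 9.71 in the arrays labelled Alox15-/- and 9.96 and 10.00 in WT arrays. Oas2 read 7.08 and 7.08 in the arrays labelled Alox15-/- and 7.20 and 7.33 in WT arrays. In both genes the arrays labelled Alox15-/- lay narrowly below WT. Oas3 read 9.61 and 9.41 in the arrays labelled Alox15-/- and 9.62 and 9.83 in WT arrays, and its groups were apart by less than its replicates. Oasl2, an OAS-like family member, read 8.93 and 8.67 in the arrays labelled Alox15-/- and 9.20 and 8.98 in WT arrays. The 4 differences ran from -0.29 to -0.18 with limma adjusted p from 0.720 to 0.777, and Oasl1 differed by 0.04 with overlap. Oas1b and Oas1c, measured outside the member list, also had overlapping groups, with differences of 0.14 and -0.085.

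Of the other antiviral effectors, Rsad2, which encodes viperin, read 10.28 and 10.32 in the arrays labelled Alox15-/- and 10.42 and 10.45 in WT arrays. The groups did not overlap at this probe set but did at its 2 others, with differences of 0.11 and -0.06. Eif2ak2, the kinase PKR that halts translation on double-stranded RNA, differed by -0.05 with overlap. Its other probe sets gave -0.17 without overlap and 0.10 with overlap. The exonuclease gene Isg20 differed by -0.08. Bst2, or tetherin, which holds budding virus at the cell surface, read 8.66 and 8.63 in the arrays labelled Alox15-/- and 8.50 and 8.51 in WT arrays, a positive difference of 0.14 without overlap.

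The interferon-induced GTPases varied in direction. Gbp2, a guanylate-binding protein active against pathogens inside the cell, read 9.03 and 9.06 in the arrays labelled Alox15-/- and 9.18 and 9.52 in WT arrays, and its second probe set was also lower, at -0.19. Gbp6 had the most negative difference of all members, -0.61 ± 0.32 (SE, n = 2 each), but with overlapping groups, and it ran from -0.98 to -0.24 when single arrays were left out. It read 6.41 and 7.04 in the arrays labelled Alox15-/- and 7.70 and 6.96 in WT arrays, whereas at its second probe set, which differed by -0.40, the groups did not overlap. Gbp3 differed by 0.26, and Mx1, of which C57BL/6 mice carry a non-functional allele, by 0.29 with a gap between WT arrays of a larger size than the difference.

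Irgm1, a regulator of the immunity-related GTPases whose loss in mice is known to drive stem cells into division, read 7.80 and 7.50 in the arrays labelled Alox15-/- and 7.90 and 8.14 in WT arrays. Igtp, a second regulator of that family also called Irgm3, read 9.87 and 10.00 in the arrays labelled Alox15-/- and 10.03 and 10.41 in WT arrays. Both were lower without overlap, with differences of -0.37 and -0.28 and limma adjusted p of 0.678 and 0.739. Ifi47, another member of the same family, went the other way, with 10.12 and 10.14 in the arrays labelled Alox15-/- and 10.09 and 9.77 in WT arrays.

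Of the enzymes around ubiquitin-like tags, Trim25 had the lowest p of all members. Trim25 encodes a ubiquitin ligase that acts on the RNA sensor RIG-I, and it read 12.29 and 12.26 in the arrays labelled Alox15-/- and 12.72 and 12.79 in WT arrays. The gap between the groups was far wider than that between replicates, with a difference of -0.48 ± 0.13 (SE, n = 2 each) and limma adjusted p = 0.575. A second probe set gave -0.51, again without overlap, and the third -0.16 with overlap. With a prior variance that depends on the mean level, Trim25 was the 1 member called, at adjusted p = 0.0114, against 0.121% of all genes called in that fit. Usp18, which removes Isg15 from proteins and dampens signalling at Ifnar2, read 6.79 and 6.97 in the arrays labelled Alox15-/- and 7.28 and 7.04 in WT arrays, a difference of -0.28 without overlap.

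The largest difference of any member probe set belonged to Xaf1, at a probe set that the rule left out. Xaf1 encodes an interferon-induced factor that promotes cell death by opposing the inhibitor XIAP. At the probe set with the higher mean, 1443698_at, it read 8.59 and 8.83 in the arrays labelled Alox15-/- and 8.09 and 8.69 in WT arrays, overlapping and with a difference of 0.32. At the second, 1443621_at, it read 10.47 and 10.29 in the arrays labelled Alox15-/- and 5.08 and 5.80 in WT arrays. The WT values were 0.08 or more above the highest bacterial control of their own arrays, while the other group lay far above it.

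This second probe set was singled out after its values were seen. Its difference was 4.94 ± 0.27 (SE, n = 2 each), set against WT values close to the controls, and only 3 of 34958 named probe sets differed by as much in either direction, itself included. It ranked 3 by p when every named probe set was tested, with limma adjusted p = 0.060, just short of the threshold, against 0.00572% of named probe sets called. The adjusted p was 0.00164 with a mean-dependent prior variance and 0.0331 without the lowest 50 percent of probe sets by level, but 0.0716 without the lowest 30 percent and 0.715 without variance moderation. Leaving out 1 array gave adjusted p from 0.575 to 0.854. The difference itself stayed between 4.58 and 5.30 without any 1 array. Since only 1 of the 2 Xaf1 probe sets showed it, these arrays do not give a difference for the whole gene. The mean of both probe sets differed by 2.63, with limma adjusted p = 0.125, and the sources at hand do not say which transcripts each probe set reads.

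**Figure D3:**
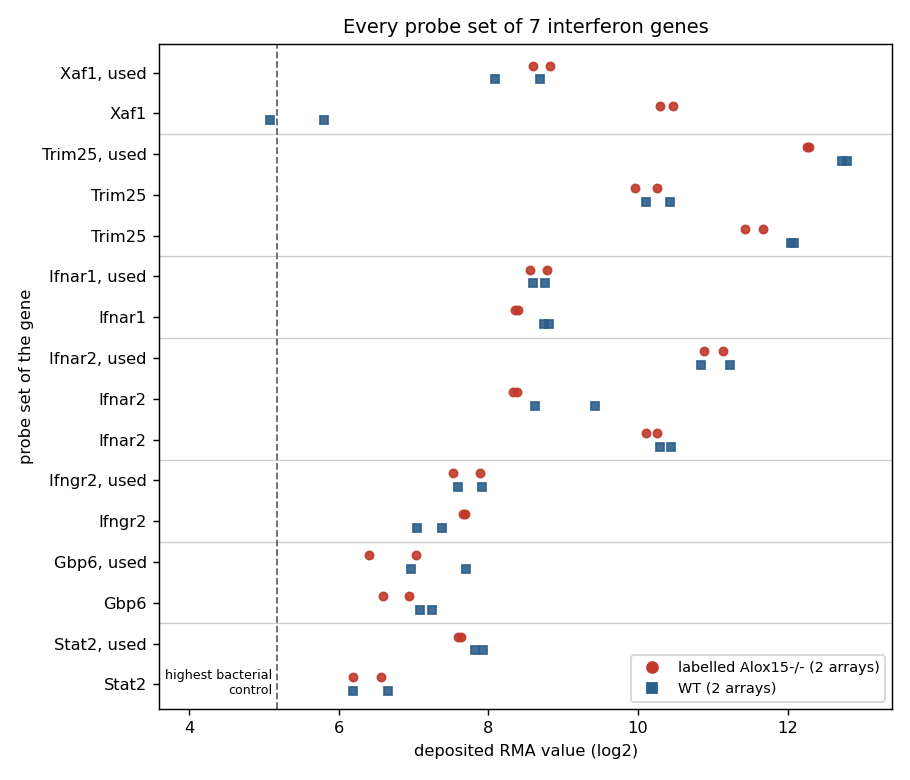
Deposited log2 values on each array for every probe set of 7 members, with the arrays labelled Alox15-/- as circles above WT arrays as squares, and "used" marking the probe set with the highest mean. The second Xaf1 probe set read 10.47 and 10.29 in the arrays labelled Alox15-/- and 5.08 and 5.80 in WT arrays, beside a dashed line at 5.17, the highest bacterial control over all 4 arrays.

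Xaf1 lies on chromosome 11, as Alox15 does, and 37 measured genes lie between them in the RefSeq gene order. Those 37 genes had a median difference of -0.05 and ran from -1.32 to 0.67, with 1 gene over 1 in size. Of the measured members 7 lie on chromosome 11, and Xaf1 is the one nearest to Alox15. The other 6 were Trim25, Irgm1, Igtp and Irf1, with the differences above, Ifi47 at 0.20 and Ifi35 at 0.00. Igtp, the next nearest, has 210 measured genes between it and Alox15. The median difference of the 31 members on other chromosomes was -0.05.

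Cxcl10, a chemokine that draws activated T cells, had the most positive difference at the probe sets used, 0.68 ± 0.33 (SE, n = 2 each). It read 6.17 and 7.18 in the arrays labelled Alox15-/- and 5.92 and 6.06 in WT arrays. The second array labelled Alox15-/- stood apart from the other 3, and without it the difference was 0.18. Ifi35, whose product is a partner of Nmi, read 11.14 and 11.17 in the arrays labelled Alox15-/- and 11.21 and 11.09 in WT arrays, so WT spanned the others. Ifi27 differed by 0.01 with overlapping groups, and by 0.14 without overlap at its second probe set.

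Members with and without a match to the searched response element letters can be set side by side. No match means only that these exact letters were absent from the window. Of the 15 measured members with a match, 8 were lower and 3 higher without overlap, and their median difference was -0.14. For the 16 measured members with a window and no match, 3 were lower and 1 higher, with a median of -0.01. Of the 7 with no window, 2 were lower and 1 higher, with a median of -0.05, and of all genes 17.1% were lower and 21.4% higher. Xaf1, Trim25 and Irf9 were among those without a match. The split was made with the members' values known and no test was run on it.

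In the rest of the pathway no gene passed either. Of 20 measured genes of interferon signalling 0 passed limma's threshold, and for 7 the arrays labelled Alox15-/- were higher and for 6 lower without overlap, against 21.4% and 17.1% of all genes. Those furthest apart among genes above the controls were Socs3, a feedback inhibitor, at 0.54, the Isg15 ligase gene Herc6 at -0.32 and the phosphatase gene Ptpn2 at -0.26. Of 19 measured genes of nucleic acid sensing 0 passed, and 2 (10.5%) were higher and 5 (26.3%) lower without overlap, against the same shares of all genes. Mavs, the adaptor of the RNA sensors, differed by 0.61, the DNA sensor gene Aim2 by 0.42 and Dhx58, a regulator of the RNA sensors, by -0.39.

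Among 64 further interferon response genes measured, 0 passed the threshold, 12 (18.8%, against 21.4% of all genes) were higher and 17 (26.6%, against 17.1%) lower without overlap, and the median difference was -0.04. The furthest apart was Ifi30, a lysosomal reductase used in antigen presentation, at 1.02. Slfn8 of the Schlafen family read 9.36 and 9.44 in the arrays labelled Alox15-/- and 10.24 and 10.37 in WT arrays, a difference of -0.90 with limma adjusted p = 0.367. Slfn5 of the same family differed by -0.66, and both lie on chromosome 11.

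**Figure D4:**
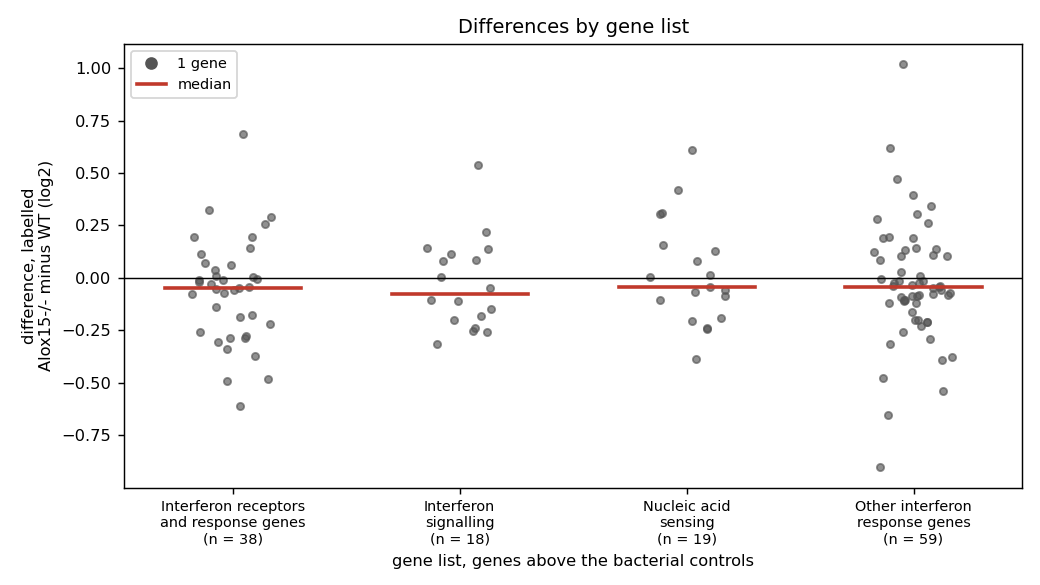
Differences (labelled Alox15-/- minus WT, log2) of the 38 members and of the genes of 3 further lists that were above the bacterial controls on all arrays, 1 point per gene, with the median as a red line. All 4 medians lie between -0.08 and -0.04.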

How the data were processed

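RNA from 4 samples, 2 labelled Alox15-/- and 2 labelled WT by title, was read on Affymetrix arrays. The deposited table holds log2 values of 45101 probe sets that the authors made with Affymetrix Expression Console 1.1 and RMA, per the submitters' processing notes. RMA subtracts background, equalises the arrays' distributions and summarises each probe set, so a difference common to all genes cannot be seen. No genome build for the deposited values is given in the sources used here. RNA was labelled with a kit for whole-transcript sense targets, per the labels' protocols, and its effect on these values was not tested.

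The platform annotation, which can be old, gave 1 gene symbol to 34958 probe sets, several to 932 and none to 9211, and the RefSeq table matched 34754 of the named ones without changing a symbol. Members were matched by that symbol. The members and gene lists were chosen with earlier results of these data known. The groups were compared across 18194 genes in R 4.3.3 by the two-sided moderated test of limma 3.58.1, without a block or a filter on dim genes, at a Benjamini-Hochberg threshold of 0.05. By rule, values per array were given for members above the controls whose groups did not overlap, the 4 receptor subunits and the 5 members highest by mean, with other members by level or difference, and each further list gave the 3 genes above the controls with the largest differences. Other values per array, and those of markers and other probe sets, were added with the values known. Alternatives covered normalization, filters, variance prior, probe set choice, chromosome 11, the replicate block and leaving out arrays. The code was tested on simulated data. Precision is limited by the number of arrays. Same-numbered replicates did not deviate together over 18194 genes (Pearson's r = -0.02, across genes, which are not independent). Figures used matplotlib 3.10.9.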

Additional observations from a re-analysis of the deposited data

Results flagged for a closer look

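The second probe set of Xaf1 differed by 4.94 between the arrays labelled Alox15-/- and WT arrays. It stands out because it lies outside the 1 probe set per gene that the comparison used, and the probe set used differed by 0.32. Its limma adjusted p was 0.060, and both arrays labelled Alox15-/- were above both WT arrays. The cause was not tested.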

How the results depend on the processing

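With 2 arrays a group, an exact test of 1 gene cannot go below p = 0.333 (two-sided). No member passed the threshold in limma under the other settings except Trim25, with a mean-dependent prior variance, which gave 1 member. The replicate block, which pairs arrays by number only, gave 0 members and an adjusted p of 0.61 for Trim25, and 0.0852 for the second Xaf1 probe set. All 38 members stayed above the bacterial controls under cyclic loess, the mean of probe sets and without any 1 array, and 35 cleared them by 1 on the log2 scale. Members without overlap on the higher side numbered 3 after median centring. Leaving out 1 array gave 8 to 14 members on the higher side, 16 to 21 on the lower side, and a median difference from -0.1562 to -0.0325. No share of all genes is given under these settings, so the counts cannot be read as particular to the members. The second Xaf1 probe set kept its difference of 4.94 and passed the threshold with a mean-dependent prior variance (adjusted p = 0.00164) and without the lowest 50 percent of probe sets (0.0331), but not under the other settings, where the adjusted p ran from 0.0545 to 0.854.

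Of 520 member values under other settings, 32 changed sign. With the mean of a gene's probe sets Ifngr2 became 0.21 and Ifi35 -0.0371, and without a change of sign Xaf1 became 2.63, Ifnar1 -0.21 and Ifnar2 -0.30. Median centring gave Ifi27 -0.0175 and Ifi35 -0.025, and cyclic loess gave Oasl1 -0.0032. Without 1 array, the differences ran as follows: Ifnar1 -0.12 to 0.10, Ifnar2 -0.22 to 0.17, Ifngr1 -0.12 to 0.11, Ifngr2 -0.23 to 0.13, Irf1 -0.0262 to 0.15, Irf7 -0.17 to 0.32, Ifit1 -0.58 to 0.43, Ifit2 -0.23 to 0.12, Oasl1 -0.26 to 0.34, Eif2ak2 -0.19 to 0.10, Isg20 -0.20 to 0.0387, Mx1 -0.0462 to 0.63, Mx2 -0.22 to 0.12, Gbp3 -0.0025 to 0.52, Ifitm1 -0.0725 to 0.055, Ifi27 -0.10 to 0.12, Ifi35 -0.06 to 0.0675. The cause was not tested, though a group of 1 array is by construction less certain.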

Other observations

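Genes of antigen presentation by class I molecules, which interferon gamma induces, were also read on all arrays. Psmb8, an inducible proteasome subunit, read 11.97 and 12.02 in the arrays labelled Alox15-/- and 11.81 and 11.93 in WT arrays. Its partner Psmb9 differed by 0.13 and Psmb10 by -0.0037. Of the peptide transporter subunits, Tap2 differed by 0.28 and Tap1 by -0.04. B2m, the light chain of class I molecules, read 13.18 and 13.18 in the arrays labelled Alox15-/- and 13.20 and 13.19 in WT arrays. The heavy chain genes H2-K1 and H2-D1 differed by -0.08 and -0.10, and the chaperone gene Tapbp by -0.09. Without overlap, Psmb8, Psmb9 and Tap2 were higher and B2m, H2-K1 and H2-D1 lower, where 21.4% and 17.1% of all genes were. None of these passed limma's threshold in the fit across all genes, and they were named after their values were seen.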
